A study of Mus musculus with 12 samples.

Results

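The genes described here encode 9 carriers that move lactate and related monocarboxylates, glucose, mannose and fructose across kidney tubule membranes. They are 9 of the 23420 genes in a table of RNA read counts from 12 mouse kidneys. The members were chosen from measured values of these same kidneys as well as by function: Slc5a12 was picked because its counts differed between the 2 sets of ischemic kidneys, and the other 8 carriers were added for their roles in lactate and glucose uptake, with earlier results of these data known. For Slc5a12 every difference is therefore given as a description, with no test. Of the 9 members, 8 passed the filter on low counts, and Slc16a3 did not.

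The kidneys came from male C57BL/6J mice, 4 in each of 3 groups. The control kidneys were removed at nephrectomy, and the ischemic kidneys were taken 24 h after an ischemia of 20 min, a duration that the sample labels also give for the controls. The study describes ischemia by a remotely closed clamp placed around the renal pedicle in earlier surgery, so that surgery and the time after it cannot be told apart from ischemia. Whether the ischemic mice had also lost the other kidney is not given for these samples. The ages of single mice, and whether a control kidney and an ischemic kidney came from the same mouse, are not given in the sources used here. Titles and group field disagree for the ischemic samples. Those called set A are anaesthetised by title and conscious by group field, those called set B are the reverse, and no direction is assigned to anaesthesia. Counts summed to between 15367342 and 44793350 per kidney, and 3 counts, taken as the detection floor, came to 0.067 to 0.195 CPM, which is the count relative to the kidney's counted total. This floor covers counting error only, since reads carry no molecular identifiers. Some genes that the kidney uses abundantly were not captured by the table, with Ass1, an enzyme of arginine synthesis, listed at 0 in every kidney, so an order between genes is an order of counted reads. The injury marker Havcr1 (KIM-1) had 0 or 1 counts in the controls and 12 to 636 in the ischemic kidneys.

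Filtered glucose and lactate are recovered in the proximal tubule. On the luminal side, sodium-coupled carriers of the SLC5 family pull the solute into the cell with the sodium gradient: SGLT2 (Slc5a2) takes up most of the glucose in the early, convoluted segments, and SGLT1 (Slc5a1) takes up what remains in the straight segment. SMCT2 (Slc5a12), of low affinity and found from the early segments on, and SMCT1 (Slc5a8), of high affinity and found further along, do the same for lactate, pyruvate and ketone bodies, and SGLT5 (Slc5a10) carries mannose and fructose. The solutes leave through the basolateral membrane by facilitated carriers, GLUT2 (Slc2a2) and GLUT1 (Slc2a1) for glucose and the proton-coupled MCT1 (Slc16a1) for monocarboxylates, while MCT4 (Slc16a3) is known as the lactate exporter of glycolytic cells.

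The members lie on 7 chromosomes of mm10, and all are protein coding. The SLC5 genes are Slc5a1 at chr5:33104219-33162870 (plus strand), Slc5a2 at chr7:128265657-128272430 (plus), Slc5a8 at chr10:88885992-88929515 (plus), Slc5a10 at chr11:61672781-61720826 (minus) and Slc5a12 at chr2:110597298-110647779 (plus). The facilitated glucose carriers are Slc2a1 at chr4:119108711-119137983 (plus) and Slc2a2 at chr3:28697903-28731359 (plus). The proton-coupled carriers are Slc16a1 at chr3:104638668-104658462 (plus) and Slc16a3 at chr11:120948480-120960868 (plus). Slc5a10 overlaps Fam83g and Grap on the opposite strand, and the opposite strand also holds genes that overlap Slc5a1 (5033423K11Rik), Slc5a2 (BC017158), Slc2a1 (Gm12867, Gm12868) and Slc2a2 (1700112D23Rik). On the same strand, Slc5a1 overlaps Gm15936, Slc16a1 overlaps Gm43581 and Gm43585, and Slc2a1 overlaps Mir1957a. The libraries were stranded, but the strand setting of the counting is not given in the sources used here, so reads of these overlapping genes cannot be told apart from those of the members.

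Related carriers could share reads, so the longest identical run between their transcripts was measured. It was at most 22 bases between the longest coding transcripts of any members, well under the 100-base reads. The longest run of all, that of the luminal glucose carriers and that of the sodium-coupled monocarboxylate carriers are shown.
Slc5a2 and Slc5a10: tcatgccaggcatgatcagccg
Slc5a1 and Slc5a2: tgcccatgttcctcatggt
Slc5a8 and Slc5a12: gctgtcactgtcctggg

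Slc2a1 and Slc2a2 encode basolateral carriers for the same sugar, and their counts in bulk tissue moved in opposite directions after ischemia. Their promoter windows (GRCm38.p6, RefSeq, 250 bases before to 50 after the start) are shown for that reason, Slc2a1 from chr4:119108495-119108794 and Slc2a2 from chr3:28697653-28697952, both on the plus strand. Capitals mark the letters ACGTG, the core that hypoxia-inducible factors bind.
Slc2a1: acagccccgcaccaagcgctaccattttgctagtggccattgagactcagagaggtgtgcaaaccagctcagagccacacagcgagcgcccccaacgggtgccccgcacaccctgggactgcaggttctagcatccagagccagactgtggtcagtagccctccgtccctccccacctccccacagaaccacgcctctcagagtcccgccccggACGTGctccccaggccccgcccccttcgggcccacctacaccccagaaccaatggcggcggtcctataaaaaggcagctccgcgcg
Slc2a2: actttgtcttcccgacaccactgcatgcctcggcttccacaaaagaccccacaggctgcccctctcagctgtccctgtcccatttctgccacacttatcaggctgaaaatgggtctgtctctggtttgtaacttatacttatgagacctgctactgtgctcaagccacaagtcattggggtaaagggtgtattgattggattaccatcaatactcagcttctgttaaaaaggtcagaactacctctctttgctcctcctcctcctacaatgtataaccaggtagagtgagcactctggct
The Slc2a1 window held 1 match and the Slc2a2 window 0. Both strands were searched for ACGTG, so that matches on opposite strands can overlap, in the 8 windows that the RefSeq table holds for 7 of the members. ACGTG was also found in the windows of Slc16a1 (3 matches), Slc5a1 (2) and Slc16a3 (2), and not in those of Slc5a8 and Slc5a10. Of 32851 promoter windows of the same length, 19.6% held ACGTG. A match is a description of letters and was not tested as a site.

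In the control kidneys Slc5a2 had the highest level per transcript length, 90.3 ± 11.4 CPM per kb of exon (SD, n = 4). Slc5a12 followed at 33.4 ± 4.38, Slc5a10 at 30.9 ± 2.37, Slc5a8 at 27.8 ± 2.16 and Slc2a1 at 26.2 ± 1.76 CPM per kb. The ranges of neighbours overlapped from Slc5a12 down to Slc2a1, so this part of the order is not resolved by 4 kidneys. Slc5a1 was at 15.1 ± 1.97, Slc2a2 at 6.65 ± 0.84 and Slc16a1 at 1.505 ± 0.888 CPM per kb, each below the kidneys of the gene above it. Slc16a3 had no count in any control. After ischemia the order changed at its head, and Slc2a1 had the highest mean of the members in set A (65.7 CPM per kb) and in set B (66.0 CPM per kb).

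**Figure D1:**
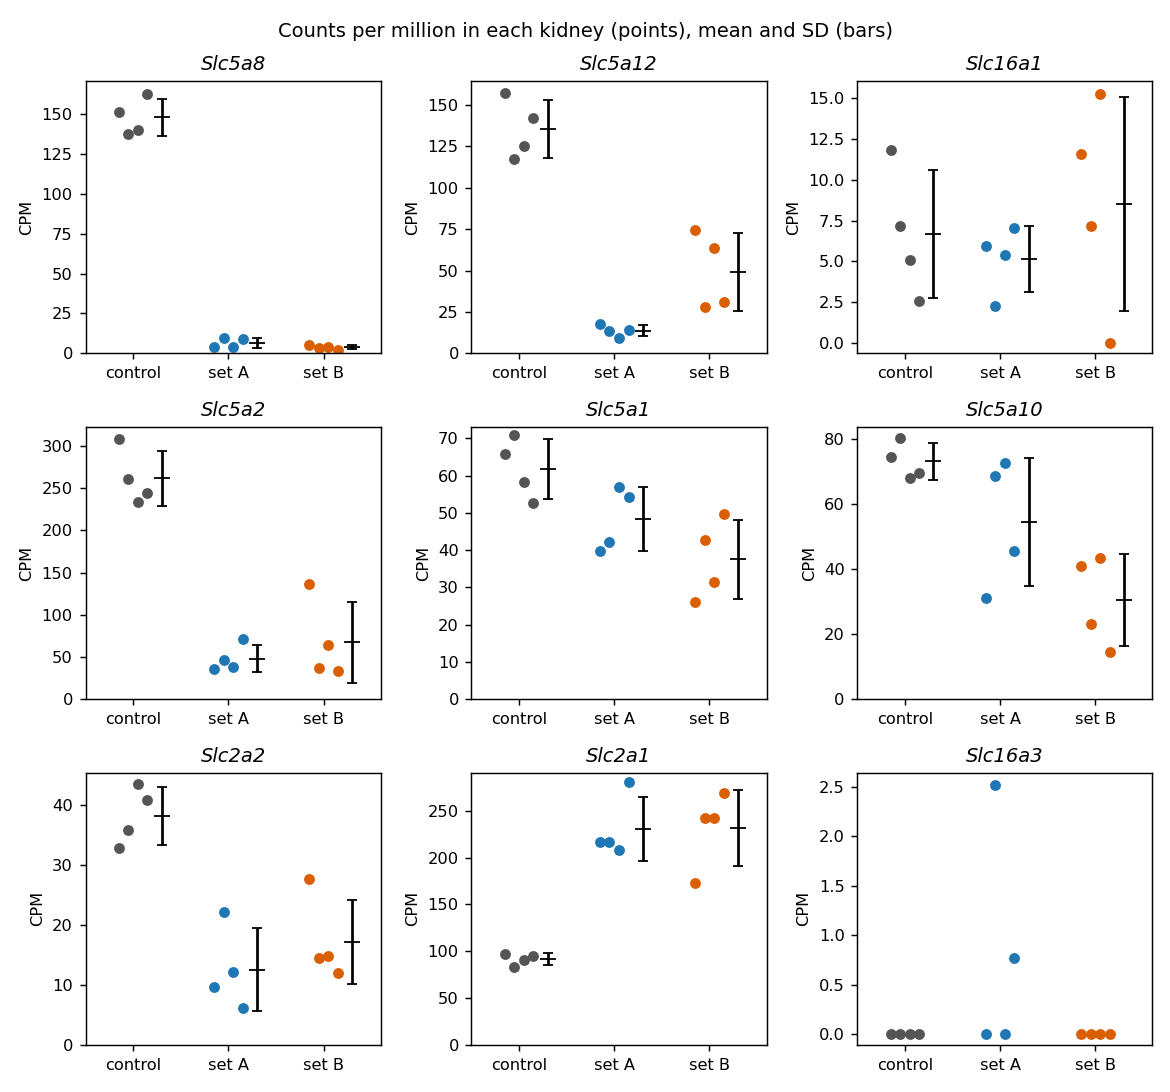
CPM (vertical axes, linear) of the 9 transporter genes in each of the 12 kidneys. Points are kidneys, in the order of replicates 1 to 4 within control, set A and set B, and the black bars are the mean and SD of 4 kidneys, left out for Slc16a3, which was counted in 2 kidneys. Slc5a8 fell to at most 9.81 CPM from at least 138, and Slc2a1 stood at 173 CPM or more in every ischemic kidney against at most 97.5 in the controls.

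The first question was how ischemia changed each carrier. Among the 7 members tested besides Slc5a12, 3 were lower and 1 was higher in set A than in control, and 5 were lower and 1 was higher in set B, counting a gene as called when its p from the quasi-likelihood test of edgeR, adjusted by Benjamini-Hochberg over 11664 genes, was below 0.05. Over all genes tested, 22.3% were called in set A against control (11.7% lower, 10.5% higher) and 22.8% in set B against control (11.9% lower, 10.9% higher). For these 7 genes the median log2 value was -0.45 (set A) and -1.17 (set B), beside -0.02 over all genes in both. The CPM ranges did not overlap with control for 4 of the 7 in set A and 6 in set B, beside 28.5% and 26.8% of all genes. The 2 comparisons share their control kidneys.

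The high-affinity monocarboxylate carrier Slc5a8 fell most among the members. It had 152, 138, 140 and 163 CPM in control replicates 1 to 4, then 3.93, 9.81, 3.795 and 8.86 CPM in set A and 5.32, 3.17, 3.801 and 2.34 CPM in set B. Every ischemic kidney lay far below every control, and the sets overlapped. The log2 fold change was -4.53 (SE 0.33, adjusted p = 6.10e-09), a 23.0-fold fall, in set A. It was -5.34 (SE 0.35, adjusted p = 1.28e-09), a 40.5-fold fall, in set B. The exact two-sided permutation p was 0.0286 in each, the smallest that 4 kidneys against 4 allow.

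The low-affinity carrier Slc5a12 had 157, 117, 125 and 142 CPM in the controls. In set A it had 17.6, 13.7, 9.47 and 13.9 CPM, and in set B 74.6, 27.9, 63.5 and 30.8 CPM. The 3 groups did not overlap, with every set B kidney between set A and control. The log2 fold change against control was -3.33 (SE 0.30) for set A and -1.48 (SE 0.28) for set B, and set B stood above set A by 1.85 (SE 0.28), a 3.60-fold higher level. This difference is what chose the gene.

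Set side by side within each kidney, the monocarboxylate carriers parted. The ratio of Slc5a8 to Slc5a12, per exon length, was 0.736 to 0.897 in the controls, 0.170 to 0.545 among set A kidneys and 0.0456 to 0.0865 among set B kidneys. The groups did not overlap, and the lower ratio in set B holds the higher Slc5a12 there that chose the gene.

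The proton-coupled Slc16a1 had 11.8, 7.15, 5.11 and 2.54 CPM in the controls. It had 5.91, 2.26, 5.40 and 7.02 CPM in set A and 11.6, 7.14, 15.3 and 0 CPM in set B. The controls alone spanned most of this range, and all groups overlapped. Fitted values were -0.38 (SE 0.88, adjusted p = 0.858) for set A and 0.35 (SE 0.87, adjusted p = 0.865) for set B, with intervals of 2 SE from -2.13 to 1.37 and from -1.40 to 2.10. Changes within these intervals are not excluded at this spread. The 0 in set B replicate 4 stood beside 346, 115 and 310 counts in the other kidneys of the set. In that kidney 23 of 6564 genes with at least 100 counts in each of the other set B kidneys were at 0, and between 0 and 20 genes were so in the other kidneys. The lactate exporter Slc16a3 had 58 counts in set A replicate 2 and 13 in set A replicate 4, and 0 in the other 10 kidneys. It was too low to test.

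Among the glucose carriers, Slc5a2, the main luminal one, had 308, 261, 233 and 244 CPM in the controls. It had 35.5, 46.5, 38.6 and 70.7 CPM in set A and 136, 36.3, 63.6 and 33.2 CPM in set B. No ischemic kidney reached the lowest control, and set B replicate 1 kept the highest level among them. Its log2 fold change was -2.47 (SE 0.35, adjusted p = 2.16e-05) for set A and -1.97 (SE 0.34, adjusted p = 2.16e-04) for set B, with an exact permutation p of 0.0286 in each. Without set B replicate 1 the set B value was -2.61.

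Slc5a1, the carrier of the straight segment, changed less. The controls had 65.8, 70.9, 58.2 and 52.6 CPM, set A 39.7, 42.3, 57.0 and 54.2 CPM, and set B 26.2, 42.8, 31.4 and 49.8 CPM. Set A overlapped with control and set B lay just below it. The log2 fold change was -0.38 (SE 0.22, adjusted p = 0.258, exact permutation p = 0.114) in set A. In set B it was -0.75 (SE 0.22, adjusted p = 0.0172, exact permutation p = 0.0286). The set B call was lost without control replicate 2 (adjusted p = 0.0515), set B replicate 1 (0.0547) or set B replicate 3 (0.0513).

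The balance of the 2 glucose carriers within a kidney also shifted in set A, and in set B it differed between kidneys. The ratio of Slc5a1 to Slc5a2 per exon length was 0.151 to 0.192 in the controls and 0.541 to 1.04 in set A. In set B the ratio was 0.136, 0.831, 0.348 and 1.06 in replicates 1 to 4. Replicate 1 lay below every control and the other replicates above every control, so the set B range covered that of the controls.

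Slc5a10, the mannose and fructose carrier, had 74.4, 80.4, 67.9 and 69.5 CPM in the controls. In set A it had 31.2, 68.6, 72.5 and 45.4 CPM, with replicates 2 and 3 at the level of the controls, and in set B 40.9, 23.1, 43.4 and 14.4 CPM, all below the controls. The fitted log2 change was -0.45 (SE 0.30, adjusted p = 0.350, exact permutation p = 0.143) in set A. In set B it was -1.28 (SE 0.30, adjusted p = 0.00385, exact permutation p = 0.0286), a 2.43-fold fall.

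The basolateral carriers moved apart. Slc2a2 (GLUT2) had 32.8, 35.8, 43.6 and 40.9 CPM in the controls, 9.72, 22.3, 12.1 and 6.13 CPM in set A and 27.6, 14.5, 14.8 and 11.97 CPM in set B. The highest ischemic kidney, set B replicate 1, was still under the lowest control. The fitted change was -1.64 (SE 0.36, adjusted p = 0.00203) in set A and -1.17 (SE 0.36, adjusted p = 0.0215) in set B, with an exact permutation p of 0.0286 in each. The set B call was lost without control replicate 3 (adjusted p = 0.0561), control replicate 4 (0.0553), or set B replicate 2 (0.0527), 3 (0.0540) or 4 (0.0529).

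Slc2a1 (GLUT1) was the member that rose. It had 97.5, 83.5, 90.8 and 95.3 CPM in the controls, 216, 216, 208 and 281 CPM in set A and 173, 242, 242 and 269 CPM in set B. The ischemic kidneys were all above the controls, and the sets overlapped. Its log2 fold change was 1.31 (SE 0.15) in each set, a rise of 2.47-fold in set A (adjusted p = 1.71e-06) and 2.48-fold in set B (adjusted p = 1.80e-06), with an exact permutation p of 0.0286 in each. The ratio of Slc2a1 to Slc2a2 per exon length went from 3.42 to 4.88 in the controls to a range of 16.0 to 75.2 (set A) and of 10.3 to 36.8 (set B). Bulk counts do not tell whether both genes changed in the same cells.

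GLUT1 is also carried by red cells, endothelium, stroma and leukocytes, so the markers of those cells were read beside it. The summed level of the endothelial markers Pecam1, Kdr and Emcn was 40.2 to 43.4 CPM in the controls, 22.0 to 32.1 CPM for set A and 21.6 to 39.7 CPM for set B, with 0 of the 2 tested called in either set. The summed fibroblast markers Pdgfrb, Col1a1 and Dcn were 348 to 449 CPM in the controls, 758 to 2248 CPM for set A and 990 to 2097 CPM for set B, of which Col1a1 was called and Pdgfrb was not. Of the 5 erythroid markers, 3 were in the table. Hba-a1 and Hba-a2 were at 0 in every kidney, as Ass1 was, so these zeros cannot show whether red cells were present. Alas2 was at most 5.37 CPM in the controls and 0.580 CPM after ischemia. The summed leukocyte markers (Ptprc, Cd68, Lyz2 and Csf1r) were 44.6 to 64.5 CPM in the controls and at most 34.0 CPM after ischemia. Most of that sum was Csf1r, with a mean of 51.3 CPM in the controls, which was called lower in both sets, while Ptprc and Cd68 were not called in either and Lyz2 was too low to test. The summed podocyte markers (Nphs1 and Podxl) were 61.3 to 79.1 CPM in the controls, 92.0 to 151.2 CPM for set A and 88.3 to 138.9 CPM for set B, above every control in every ischemic kidney. Of these, Podxl was called higher, by 0.87 on the log2 scale in set A (adjusted p = 0.00153) and 0.65 in set B (adjusted p = 0.0142), and Nphs1 was not called in either. The part of these cells in the Slc2a1 rise was not tested.

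**Figure D2:**
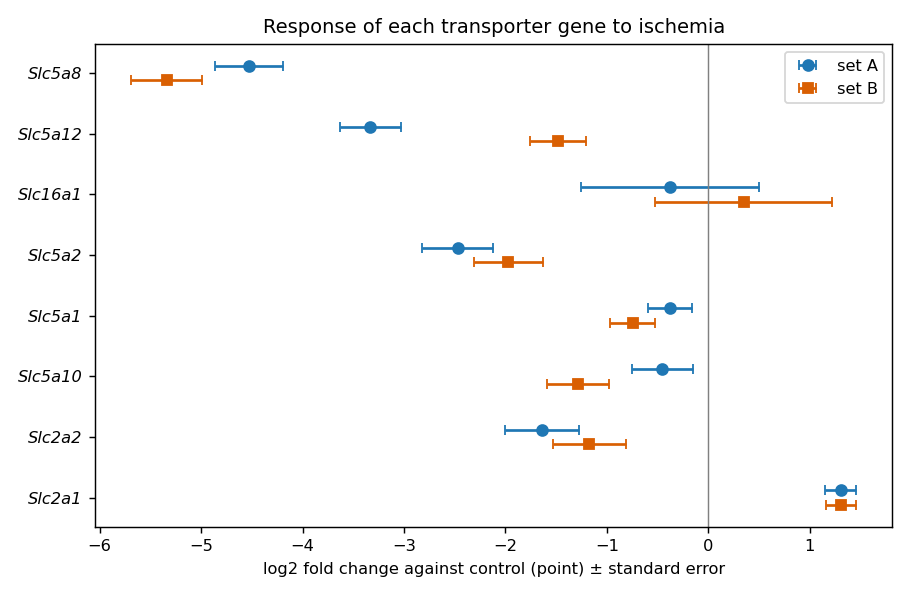
Fitted log2 fold change against control (horizontal axis) of the 8 transporter genes that passed the filter, in set A (circles) and set B (squares), with bars of 1 standard error. Slc5a8 had the lowest values (-4.53 and -5.34), Slc2a1 was at 1.31 in both sets, and Slc16a1 had the widest bars. Slc5a12 is shown as a description.

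The second question was whether the carriers differed between the ischemic sets. Of 11664 genes, 1 (0.00857%) was called in set B against set A. That gene was Slc5a12, which was chosen for this difference, so no test is read on it here. Its call was lost in 12 of the 19 alternatives. None of the 7 other members tested was called by edgeR or under any of the 19 alternatives, DESeq2 and limma-trend included, and 2 of them, Slc5a8 and Slc5a10, had an unadjusted p under 0.05, as did 587 of the 11664 genes. No member besides Slc5a12 had sets whose CPM ranges did not overlap, beside 2.65% of all genes. Slc5a10 was lower in set B by -0.83 on the log2 scale (SE 0.30, unadjusted p = 0.0128, adjusted p = 0.930, exact permutation p = 0.114), so its call in set B alone is not shown to differ from set A. Slc5a8 was lower in set B by -0.81 (SE 0.31, unadjusted p = 0.0156, adjusted p = 0.930, exact permutation p = 0.171).

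The glucose carriers showed no resolved difference between the sets. For Slc2a1 the difference was 0.00 on the log2 scale (SE 0.15, adjusted p = 0.9997), with an interval of 2 SE from -0.29 to 0.30. For Slc5a2 it was 0.50 (SE 0.33, adjusted p = 0.9997), with an interval from -0.16 to 1.16, and without set B replicate 1 it was -0.12. For Slc2a2 it was 0.47 (SE 0.35, interval -0.24 to 1.18), and for Slc5a1 -0.37 (SE 0.22, interval -0.80 to 0.07). Slc16a1 differed by 0.73 (SE 0.88, interval -1.03 to 2.48).

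Most members belong to the proximal tubule, so markers of that tubule were read in the same kidneys. In bulk tissue, fewer cells of a type and less RNA per cell cannot be told apart. The 4 general proximal tubule markers (Lrp2, Cubn, Hnf4a, Ggt1) summed to a CPM of 3237 to 3452 among controls, 775 to 1244 among set A kidneys and 453 to 1213 among set B kidneys. All 4 were lower in both sets, and the median of their log2 fold changes was -2.24 (set A) and -2.28 (set B). The 5 convoluted segment markers (Slc6a19, Slc4a4, Slc34a1, Slc34a3, Gatm) were also all lower, with medians of -3.55 and -3.21. Of the 6 straight segment markers, 5 (Slc7a13, Cyp7b1, Slc22a7, Atp11a, Acsm3) were lower in each set, and Slc6a18 was not called, with log2 values of 0.30 and 0.41. The medians of the 6 were -4.42 and -5.23. In set B against set A, none of these 15 markers was called by edgeR, and 8 had an unadjusted p under 0.05, beside 587 of the 11664 genes. The CPM ranges of the sets overlapped for all 8. Of the convoluted markers, Slc34a1 was level between the sets (0.02 on the log2 scale, unadjusted p = 0.940 by edgeR). Its means were 424 CPM (set A) and 427 CPM (set B). The other 4 were among the 8, all higher in set B, as was Slc5a12, which was chosen for that difference. These were Gatm (0.83 on the log2 scale, unadjusted p = 0.00380, adjusted p = 0.930), Slc4a4 (0.65, unadjusted p = 0.0113, adjusted p = 0.930), Slc6a19 (0.75, unadjusted p = 0.0363, adjusted p = 0.962) and Slc34a3, with a mean of 0.0109 CPM (set A) and 2.78 CPM (set B), unadjusted p = 1.67e-05, adjusted p = 0.0972. Of the straight markers, Slc7a13, Cyp7b1 and Acsm3 were lower and Atp11a was higher in set B at that level.

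Some markers of other segments fell too. In the thick limb Slc12a1, its sodium-potassium-chloride carrier, fell by 3.07 in set A (SE 0.31, adjusted p = 3.09e-07) and fell by 2.56 in set B (SE 0.30, adjusted p = 2.61e-06), while Umod was not called. In intercalated cells Slc4a1, an anion exchanger, fell by 2.13 in set A (SE 0.38, adjusted p = 2.75e-04) and fell by 2.98 in set B (SE 0.39, adjusted p = 1.08e-05), while Atp6v1g3 was not called. Of the 2 distal convoluted tubule markers, Pvalb, at a mean of 2.03 CPM in the controls, had a mean of 0 CPM in set B (adjusted p = 0.0327) and of 0.0326 CPM in set A (adjusted p = 0.111), its difference between the sets was not called (adjusted p = 0.9997), and Slc12a3 was not called. None of the 3 collecting duct markers was called by edgeR.

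The course of the members through the 8 ischemic kidneys is given beside these markers. In set A, Slc5a12 lay between -3.86 and -2.95 log2 units from the control mean, and the median of the convoluted segment markers lay between -4.06 and -2.93. In set B replicates 1 to 4, Slc5a12 stood at -0.86, -2.26, -1.13 and -2.18, while the convoluted markers stood at -2.03, -3.63, -2.41 and -4.54. The higher standing of Slc5a12 in set B is part of what chose the gene. Slc5a2 stood at -0.94 in set B replicate 1 and between -3.02 and -2.08 in the other set B kidneys. In that replicate Slc5a12, Slc5a2, Slc2a2 and the general and convoluted markers were all less reduced than in any other set B kidney. Slc5a1 went the other way there, at -1.23 against -1.01 to -0.36 in the other set B kidneys. Slc5a8 lay between -5.99 and -3.94 in the 8 ischemic kidneys, below the median of the general markers in each of them. The median of the straight segment markers lay between -7.01 and -2.93 and was lower than Slc5a8 in 5 of the 8.

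**Figure D3:**
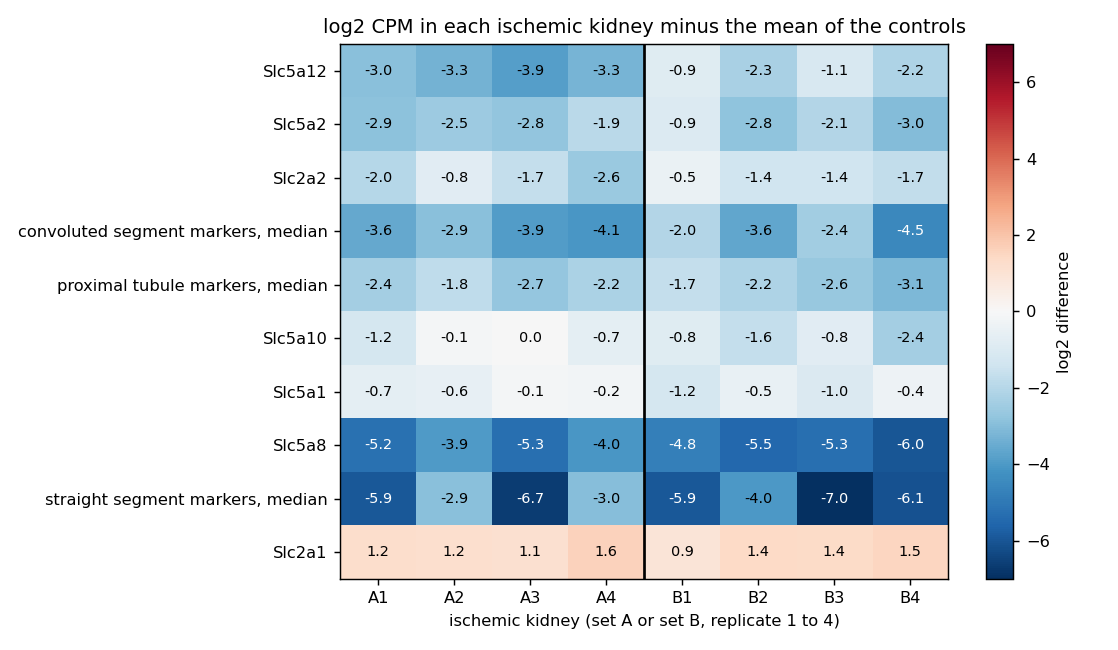
Colour and number give the log2 CPM (prior count 2) in each ischemic kidney minus the mean of the 4 controls, for 7 transporter genes and the medians of 3 lists of proximal tubule markers. Columns are set A and set B kidneys, replicates 1 to 4, split by the line. Slc5a12 is -3.86 to -2.95 across set A and -2.26 to -0.86 across set B, and set B replicate 1 is the palest column for Slc5a2, Slc5a12 and Slc2a2.

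**Figure D4:**
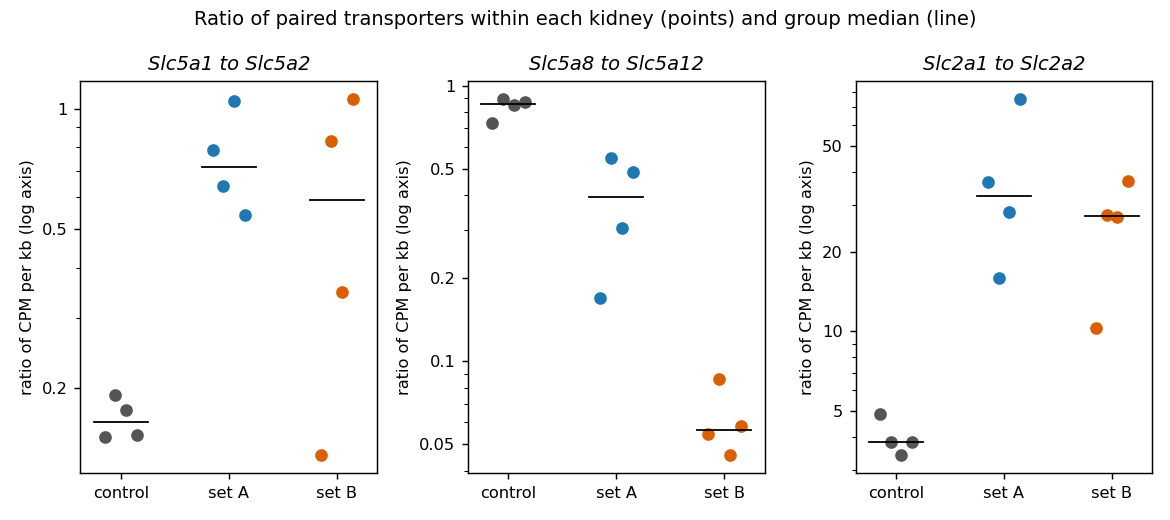
Ratio of CPM per kb of exon between paired transporters (vertical axes, logarithmic) in each kidney, as points, with the group median as a line. Slc5a8 to Slc5a12 separates the 3 groups (0.736 to 0.897, 0.170 to 0.545 and 0.0456 to 0.0865), and set B replicate 1 is the low point at 0.136 for Slc5a1 to Slc5a2.

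The genes whose course through the 8 ischemic kidneys was most like that of Slc5a12 were ranked by the root mean square difference of these log2 values, over 7567 genes with at least 5 CPM in the controls. The nearest were Pdzk1 (0.69), Chrna4 (0.71), Slc6a19 (0.74), Adh1 (0.77), Tmem27 (0.77), Echdc2 (0.77), Stxbp5l (0.80) and Ksr2 (0.80), and the same 8 were nearest with a prior count of 0.5. This measure weighs the depth of the fall as well as the difference between the sets, and the neighbours differed less between the sets than Slc5a12 did. The mean log2 value of Slc5a12 was -3.35 (set A) and -1.61 (set B), that of Pdzk1 -3.21 and -2.36, that of Slc6a19 -2.74 and -1.95, and that of Stxbp5l -2.60 and -2.27. Pdzk1 is a brush border scaffold, Slc6a19 the luminal carrier of neutral amino acids, Tmem27 (collectrin) a partner of that carrier and Adh1 an alcohol dehydrogenase. Among the members, Slc5a2 was nearest, at rank 13 (0.84), and Slc2a2 was at rank 242 (1.31). Slc5a8, which carries the same substrates as Slc5a12, was at rank 4856 (2.87), and Slc2a1 at rank 7246 (3.92).

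The proteins that hold or serve these carriers were read as a list of 5, of which 4 were tested. Pdzk1, with 133.8 ± 17.9 CPM (SD, n = 4) in the controls, fell by 3.18 on the log2 scale in set A (SE 0.28, adjusted p = 7.28e-08) and fell by 2.28 in set B (SE 0.27, adjusted p = 3.42e-06). Slc9a3r1 (NHERF1), another scaffold, fell by 0.89 in set A (adjusted p = 0.00253) and fell by 0.95 in set B (adjusted p = 0.00146). Pdzk1ip1 (MAP17), the small subunit that SGLT2 needs for activity, fell by 2.08 in set B (SE 0.65, adjusted p = 0.0253), and in set A its value was -1.42 (SE 0.64, adjusted p = 0.129). Bsg (basigin), the chaperone of MCT1 and MCT4, had values of -1.68 (adjusted p = 0.131) and -1.69 (adjusted p = 0.126), and Emb was too low to test.

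Lactate that enters the cell is oxidised by lactate dehydrogenase, and its genes were read as a list of 4, of which Ldhc was at 0 in every kidney. Ldhd, the enzyme for D-lactate, fell by 1.86 in set A (SE 0.35, adjusted p = 4.45e-04) and fell by 1.88 in set B (SE 0.35, adjusted p = 4.22e-04). Ldha, the most abundant of the list in the controls with 71.7 ± 16.8 CPM (SD, n = 4), fell by 0.63 in set A (SE 0.20, adjusted p = 0.0299) and had a value of -0.29 in set B (SE 0.20, adjusted p = 0.380). Ldhb had values of -0.91 (adjusted p = 0.0927) and -0.71 (adjusted p = 0.201). The difference between the sets in Ldha was 0.34 (SE 0.20, adjusted p = 0.9997).

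Other genes of the SLC5, SLC2 and SLC16 families were read as a list of 28, of which 17 were tested and 4 were at 0 in every kidney. Of those tested, 6 fell and 2 rose in set A, beside 11.7% called lower and 10.5% called higher over all genes. In set B 7 fell and 2 rose, beside 11.9% and 10.9%. Their median log2 value was -1.03 (set A) and -1.40 (set B), beside -0.02 over all genes in both, and none was called between the sets.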

How the data were processed

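RNA of 12 kidneys was measured. The authors made stranded mRNA libraries, read single ends, checked them with FastQC, aligned them to mm10 with STAR and counted them with HTSeq. They deposited raw counts of 23420 genes, without normalization. Versions and the annotation release are not given in the sources used here.

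Counts were analysed in edgeR 4.0.16 (R 4.3.3). The filter of edgeR (minimum count 10, minimum total 15) kept 11664 genes, libraries were scaled by TMM, and 1 quasi-likelihood model with 3 groups was fitted to all 12 kidneys, with Benjamini-Hochberg adjustment over all genes and a threshold of 0.05. CPM use counted totals. The SE of a log2 fold change was derived from the test, as its absolute value divided by the square root of the F statistic. Single members were also compared by exact two-sided permutation tests of CPM. Nothing states that the kidneys of a group came from separate experiments, so p-values measure the spread between these kidneys. In simulated counts for set A against control (11664 genes), 27 of 96 genes changed by 1 log2 unit and 62 of 104 changed by 2 were recovered, none with the wrong sign, with 6 false calls. No other genes were changed there, while 22.3% were called in the data, so these rates need not hold for the measured kidneys. Positions are from GENCODE M21, promoters from RefSeq.

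The members and the gene lists were chosen with earlier results of these data known. Genes named are the members, every gene of the 3 lists of other transporters, partners and lactate dehydrogenases that was called or was the most abundant of its list in the controls, the 8 nearest in profile to Slc5a12, and marker genes with their list. Of the genes in these lists, 3 are not reported here and enter no list value, 3 markers were not analysed here, and the adipocyte and intestine marker lists are not described. The other members of those lists are named as untested or uncalled where they complete a list. Alternatives were DESeq2 1.42.0, limma-trend (limma 3.58.1), RLE factors, other filters, fits of 2 groups, a replicate block, TMM-scaled CPM and leaving out each kidney. Other steps used SciPy 1.17.1, pandas 2.3.3 and NumPy 2.4.6 in Python 3.11.15, with figures by matplotlib 3.10.9.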

Additional observations from a re-analysis of the deposited data

Results flagged for a closer look

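The level of Slc2a1 in set A replicate 4, 280.7 CPM, stood apart from the other 3 kidneys of its set, which had between 208 and 216 CPM. Its gap to the nearest of them was 0.881 of the range of the set, above Dixon's 95% critical value for 4 samples. The same reading was made in 25 groups of 4 kidneys, and chance marks about 1 in 20. Without this kidney Slc2a1 was still called in set A against control.

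The response of Slc5a12 to ischemia differed between the sets, by 1.85 on the log2 scale (SE 0.28). This difference chose the gene, so it is a description.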

How the results depend on the processing

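Each comparison of a member was refitted under 19 alternatives. The calls of Slc5a2, Slc5a8, Slc2a1 (both sets against control), Slc2a2 (set A) and Slc5a10 (set B) held in all 19, and those of Slc5a1 and Slc2a2 in set B were lost in 3 and 5, each by leaving out 1 kidney. The number of genes called in set B against set A, 1 in edgeR, was 29 in DESeq2 (653 with an unadjusted p under 0.05), 6 with no filter, 0 in limma-trend (683 unadjusted), 0 in a fit of only these 2 groups (336 unadjusted) and between 0 and 7 when 1 kidney was left out. The cause was not tested.

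Values near 0 changed sign. Slc2a1 in set B against set A was -0.0021 in a fit of the 2 groups and from -0.064 to 0.124 when 1 kidney was left out, and Slc5a2 there ran from -0.12 to 0.76. Slc16a1 was -0.91 in limma-trend for set B against control and -0.61 for set B against set A. When 1 kidney was left out it ran from -0.65 to 0.033 in set A against control and from -0.092 to 0.76 in set B against control. None of these was called. TMM scaling moved the group means of CPM by at most 1.34%, and none by more than 1 SD.

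Kidneys share replicate numbers across groups. The correlations of same-numbered kidneys lay between -0.055 and 0.045. Kidneys of unlike numbers were not set beside them, so whether the numbers pair the kidneys is not settled. With a replicate block, 2491 genes were called in set A against control (2599 without it), 2531 in set B against control (2659) and 1 in set B against set A, and no call of a member changed. Counts limit Slc16a3, found in 2 kidneys, and the spread between kidneys limits Slc16a1.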

Other observations

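Of the 28 other SLC5, SLC2 and SLC16 carriers read, 17 were tested, and 6 of those tested fell in both sets. Over all 11664 genes, falls were called for 11.7% (set A) and 11.9% (set B), each set taken alone. Slc5a11 (SMIT2), a sodium-coupled inositol carrier, had 113.6 to 141.0 CPM in the controls, 13.1 to 24.9 CPM for set A and 7.09 to 47.0 CPM for set B. It fell by 2.72 on the log2 scale (SE 0.38, adjusted p = 1.83e-05, edgeR) in set A and fell by 2.14 (SE 0.37, adjusted p = 2.06e-04) in set B, the order kept for the next genes. Slc5a9 (SGLT4), which carries mannose and glucose, fell by 1.99 (adjusted p = 0.00447) and fell by 2.02 (adjusted p = 0.00395). Slc16a4 fell by 2.82 (adjusted p = 8.43e-05) and fell by 3.75 (adjusted p = 5.40e-06), and Slc16a13 fell by 1.02 (adjusted p = 0.0212) and fell by 1.06 (adjusted p = 0.0169).

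The other carriers that fell were near the detection floor after ischemia. Slc2a5 (GLUT5), the fructose carrier, had 1.10 to 8.79 CPM in the controls and 0 counts in all 4 set A kidneys, at least 41.0-fold lower against a floor of 3 counts per kidney (adjusted p = 0.00360), and at most 0.456 CPM in set B (adjusted p = 0.0488). Slc16a7 (MCT2) had 1.08 to 2.73 CPM in the controls and 0 counts in set B, at least 12.6-fold lower (adjusted p = 0.0229), and at most 0.0223 CPM in set A (adjusted p = 0.0385). Slc16a9, called in set B only, had 1.37 to 5.67 CPM in the controls and 0 counts in set B, at least 26.3-fold lower (adjusted p = 0.0154). In set A it had at most 1.61 CPM (adjusted p = 0.270), and its difference between the sets was not called (adjusted p = 0.941).

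The carriers that rose were Slc5a3 (SMIT1), another inositol carrier, and Slc16a6 (MCT7). Slc5a3 had the highest CPM of these carriers in the controls, 220.9 to 298.5, with 333.7 to 445.2 CPM for set A and 253.2 to 690.9 CPM for set B. Per exon length it was below Slc5a11 in the controls, at 20.2 to 27.4 against 41.2 to 51.1 CPM per kb. Slc5a3 rose by 0.63 (SE 0.21, adjusted p = 0.0353, edgeR) in set A and 0.65 (SE 0.21, adjusted p = 0.0295) in set B on the log2 scale. Slc16a6 had 2.90 to 10.9 CPM in the controls, 20.2 to 25.4 CPM for set A and 9.50 to 23.4 CPM for set B, a rise of 1.91 (SE 0.41, adjusted p = 0.00160) and 1.60 (SE 0.41, adjusted p = 0.00627). The set B ranges of both genes overlapped with control. The fitted changes of the inositol carriers Slc5a3 and Slc5a11 thus went in opposite directions in both sets. In set B replicate 1, at 253.2 CPM, Slc5a3 lay within the control range.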
